A study of Mus musculus with 2 samples.

Results

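Mir148a, Mir148b and Mir152 are the genes of the miR-148/152 family, a set of vertebrate microRNAs (miRNAs) that share their target-recognition sequence. The 3 genes were chosen by symbol, by matching Ensembl identifiers of the count files to GENCODE mouse annotation M21 on mm10, in a rule that uses none of their values but was written with earlier results of these data known. They are 3 of 1973 counted miRNA genes. All 3 were among the 371 genes detected with at least 10 reads in each library.

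Short RNAs (size range under 30, per the labels) were sequenced from neural tube of B6NCrl mouse embryos at 12.5 days of development. The neural tube is the embryonic precursor of brain and spinal cord. The single group holds 2 biological replicates, each pooled from healthy embryos of either sex. Replicate 1 was pooled from 120 embryos and replicate 2 from 88. Since only this tissue and age were sampled, without a treatment, the comparisons are among genes and between the libraries.

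A miRNA gene is transcribed as a hairpin, from which a 5′ arm (5p) and a 3′ arm (3p) are cut, and the arm that is loaded into an Argonaute protein pairs with target messenger RNAs mainly through its seed, bases 2 to 8. In this family the 3p arm is the usual guide strand. Its targets in mouse and human cells include the transcript of the maintenance DNA methyltransferase Dnmt1.

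The mature sequences are shown because the shared seed defines the family and the other bases tell its genes apart. They are RefSeq entries on GRCm38.p6, written 5′ to 3′ with the seed in capitals. The 3p arms lie on the minus strand at chr6:51269829-51269850 for Mir148a, and on the plus strand at chr15:103285185-103285206 for Mir148b and chr11:96850439-96850459 for Mir152.
miR-148a-3p: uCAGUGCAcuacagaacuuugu
miR-148b-3p: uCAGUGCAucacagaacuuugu
miR-152-3p: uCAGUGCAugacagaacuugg

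The 3p arms were identical over their first 8 bases and departed from each other at bases 9 and 10. With positions counted from 1 at the 5′ end and the miR-148a-3p base given first, miR-148b-3p differed by C9U and U10C, so 20 of 22 bases were identical. Against miR-152-3p the differences were C9U, U10G and U20G, which left 18 of 21 compared bases identical. From miR-148b-3p to miR-152-3p they were C10G and U20G, with 19 of 21 identical. No other entry among the 1738 mature mouse sequences in the table has this seed at bases 2 to 8, so the 3 arms make up 0.173% of them.

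The 5p arms are shown because a deposited gene count does not separate the arms. They are cut from the other side of the same hairpins, at chr6:51269867-51269888 (minus strand), chr15:103285148-103285171 and chr11:96850400-96850423 (plus strand).
miR-148a-5p: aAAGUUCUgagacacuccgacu
miR-148b-5p: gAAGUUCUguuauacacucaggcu
miR-152-5p: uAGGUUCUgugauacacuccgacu

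The 5p arms of Mir148a and Mir148b share their seed with each other and with no other mature entry in the table. That of Mir152 differs from miR-148a-5p in 1 seed base, A3G. The longest run in common, 11 bases, was between the 5p arms of Mir148a and Mir152, against 8 for each pair with Mir148b.

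The whole hairpins, with the 3p arm in capitals, show how far the genes differ outside the mature arms.
Mir148a: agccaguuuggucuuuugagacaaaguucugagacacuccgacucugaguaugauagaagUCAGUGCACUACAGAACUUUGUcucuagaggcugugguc
Mir148b: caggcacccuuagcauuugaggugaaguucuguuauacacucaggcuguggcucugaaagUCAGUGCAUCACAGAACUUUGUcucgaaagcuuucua
Mir152: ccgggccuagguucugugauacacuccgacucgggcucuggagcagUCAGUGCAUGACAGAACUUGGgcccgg

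Mir152 has the shortest hairpin of the family, with 73 bases against 99 for Mir148a and 97 for Mir148b, and the highest G and C content, with 61.6% against 45.5% and 45.4%. Between the arms lie 16 bases in Mir148a, 13 in Mir148b and 15 in Mir152. The minimum free energy predicted by RNAfold was -41.0 kcal per mol for Mir148a, -30.9 for Mir148b and -43.5 for Mir152. The longest run that a pair of these hairpins shares is 15 bases (Mir148a and Mir148b), and no 20-base stretch of any of them occurs in another counted miRNA gene of the annotation. Reads with several mapping places are counted for no gene. How many mismatches the alignment allowed is not given in the sources used here, so whether reads of 1 family gene could be placed at another was not tested.

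Mir148a was the most abundant of the family, Mir148b was intermediate and Mir152 the lowest, in each library. Levels are own-strand reads per 1000000 own-strand reads over all miRNA genes (CPM). Mir148a had 1192 reads in replicate 1 and 991 in replicate 2, or 248.2 and 224.1 CPM, with exact binomial 95% intervals of 234.3 to 262.7 and 210.3 to 238.5. Its mean was 236.1 ± 17.1 CPM (SD, n = 2). Mir148b had 631 and 638 reads, or 131.4 CPM (interval 121.3 to 142.1) in replicate 1 and 144.3 CPM (133.3 to 155.9) in replicate 2, with a mean of 137.8 ± 9.09 CPM. The ranges of these genes over the libraries do not overlap.

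Mir152 had 217 reads in replicate 1 and 202 in replicate 2, which give 45.2 CPM (39.4 to 51.6) and 45.7 CPM (39.6 to 52.4), with a mean of 45.4 ± 0.344 CPM (SD, n = 2). That SD is 0.757% of the mean, while counting alone gives an error of 6.91% at this number of reads. The closeness of the Mir152 values is therefore finer than the depth can resolve. For Mir148a the SD was 7.23% of the mean beside a counting error of 3.03%, and for Mir148b 6.60% beside 3.97%. Opposite-strand reads at the 3 genes amounted to 1, at Mir152 in replicate 2.

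**Figure D1:**
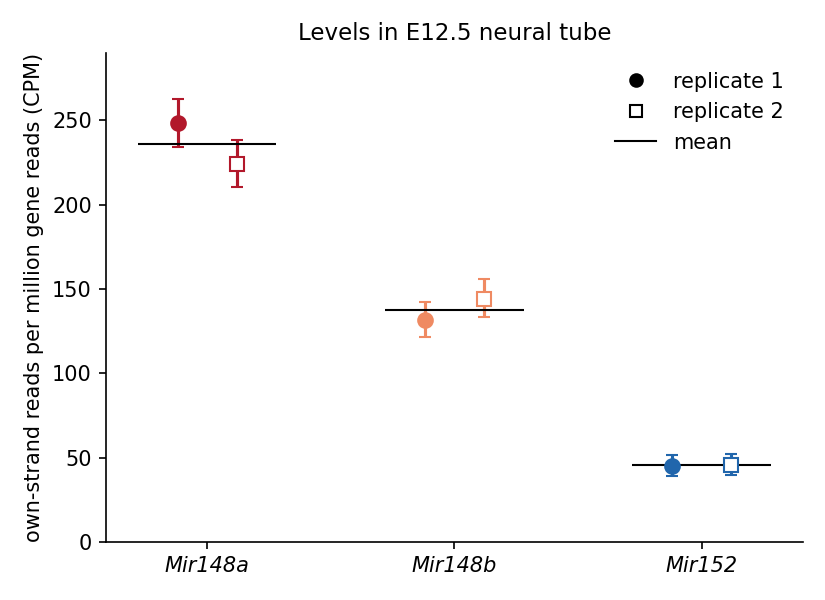
CPM of Mir148a, Mir148b and Mir152 (y axis, from 0) in each library of E12.5 neural tube: filled circles are replicate 1, open squares replicate 2, error bars the exact binomial 95% intervals (counting error only) and black lines the means. The genes form 3 separate levels at means of 236.1, 137.8 and 45.4 CPM, with no overlap between genes.

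Ratios within a library do not depend on the library total. Mir148a over Mir148b was 1.89 in replicate 1 and 1.55 in replicate 2, a mean of 1.72 ± 0.237 (SD, n = 2). Mir148a over Mir152 was 5.49 and 4.91, a mean of 5.20 ± 0.415. Mir148b over Mir152 was 2.91 and 3.16, a mean of 3.03 ± 0.177. Each ratio lay above 1 by more than its spread, in 2 of 2 libraries. An exact permutation test over 2 libraries cannot give a p below 0.5, so no test of the order was made. The guide arms differ in length by at most a base, and reads were not divided by length. How evenly the library preparation captured different sequences was not measured, so read ratios may differ from ratios of molecules.

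The family as a whole held 2040 reads in replicate 1 and 1831 in replicate 2. This was 0.0425% (exact interval 0.0407 to 0.0444) and 0.0414% (0.0395 to 0.0433) of the gene reads, or a summed 419.4 ± 7.64 CPM (SD, n = 2). Relative to its mean, the sum differed less between the 2 libraries than the share of each gene in it. For Mir152 that contrast is finer than its counting error of 6.91%. Mir148a made up 58.4% of the family's reads in replicate 1 (56.3 to 60.6) and 54.1% in replicate 2 (51.8 to 56.4). Mir148b made up 30.9% (28.9 to 33.0) and 34.8% (32.7 to 37.1). Mir152 made up 10.6% (9.33 to 12.1) and 11.03% (9.63 to 12.6). Mir148a thus held more than all the other family reads together in each library. In tissue RNA, a low level from few cells and a low level in every cell cannot be told apart.

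Among the 371 detected genes the family lay in the middle of the range. Mir148a ranked 154th by mean CPM, with 58.6% of the other detected genes below it. Mir148b ranked 176th, with 52.7% below it, and Mir152 ranked 243rd, with 34.6% below it. The median detected gene had 114.7 CPM, which places Mir148a and Mir148b above and Mir152 below the median. The ranks in replicates 1 and 2 were 153 and 154 for Mir148a, 181 and 173 for Mir148b, and 243 and 240 for Mir152.

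**Figure D2:**
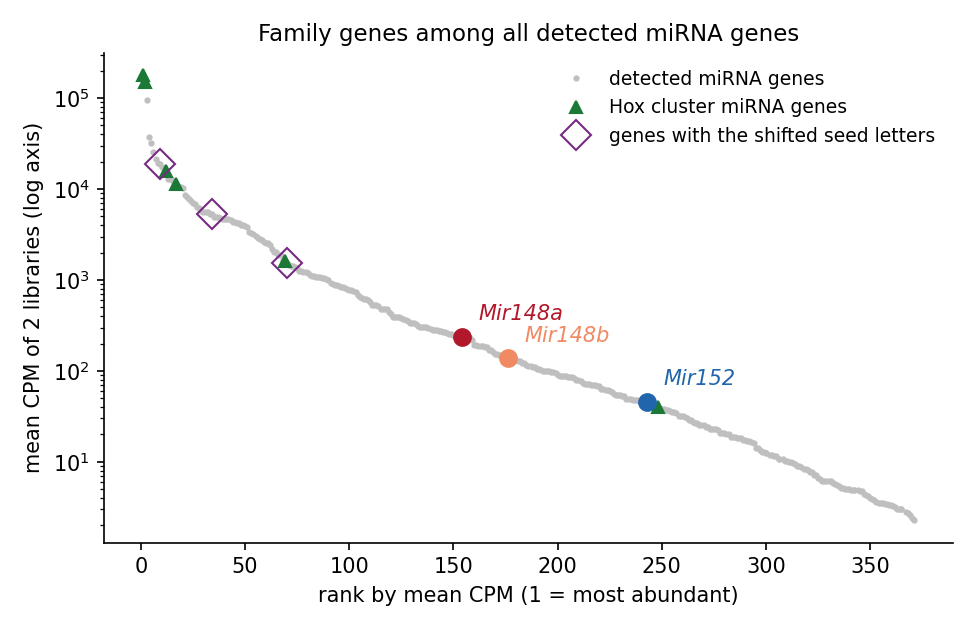
Mean CPM of 2 libraries (log y axis) against rank (x axis) for the 371 detected miRNA genes in grey, with the family genes as coloured circles, the Hox cluster miRNA genes as green triangles and the detected genes with a table entry and the shifted seed letters as open purple diamonds (Mir301b, with no entry, is not marked). The family genes sit at ranks 154, 176 and 243, below these 3 diamonds and below all triangles but Mir196a-1, which lies just under Mir152.

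By GENCODE M21, Mir148b and Mir152 lie inside paralogous host genes and Mir148a lies between genes. Mir148b (chr15:103285125-103285221, plus strand) is in intron 1 of Copz1, and Mir152 (chr11:96850393-96850465, plus strand) in intron 1 of Copz2. Copz1 and Copz2 encode the zeta subunits of the coatomer, the coat of vesicles that travel between Golgi and endoplasmic reticulum. Each hairpin is on the strand of its host and overlaps an exon of none of the host's annotated transcripts (4 for Copz1, 5 for Copz2, of which 3 span Mir152). Mir152 starts 523 bases from the start of Copz2, against 12411 bases from the start of Copz1 for Mir148b. Mir148a (chr6:51269812-51269910, minus strand) has no other annotated gene on its strand. Host transcripts were not measured in these libraries of short RNAs.

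Compared with genes of the same annotation, Mir148b ranked 73rd and Mir152 102nd of the 166 detected miRNA genes in an intron on their strand, whose median was 101.6 CPM. Mir148a ranked 49th of the 110 detected genes with no other gene on their strand, whose median was 152.4 CPM. Within its class Mir148a lay above 56.0% of the other genes, Mir148b above 56.4% and Mir152 above 38.8%. The values for Mir148a and Mir148b refer to different classes. Among all detected genes, 58.6% of the others lay below Mir148a and 52.7% below Mir148b. Whether the annotation setting goes with the level was not tested.

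Each of the 3 genes lies on a chromosome that carries a Hox cluster, an array of transcription factor genes with roles along the head-to-tail axis, and within 1 Mb of it. The nearest Hox gene was Hoxc4, 248.3 kb away, for Mir148b and Hoxb1, 482.1 kb away, for Mir152. Of 1894 counted genes with a position in the annotation, 17 (0.898%) had a Hox gene within 1 Mb. Of the 371 detected genes, 9 did (2.43%), and these 9 were the 3 family genes and the 6 miRNA genes of the Hox clusters themselves.

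A second set of paralogs accompanies them. The neighbouring protein-coding gene on 1 side was Nfe2l3 for Mir148a (162759 bases away), Nfe2 for Mir148b (26721 bases) and Nfe2l1 for Mir152 (20424 bases). These encode related basic leucine zipper transcription factors, of which Nfe2 is known from erythroid cells and platelets. On the other side the nearest were Npvf for Mir148a (615372 bases) and Cdk5rap3 for Mir152 (56960 bases). For Mir148b it was Gpr84 (23013 bases), which is nearer than Nfe2. The Nfe2-related neighbours were picked out after the annotation was seen. The positions describe the genome and not expression.

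**Figure D3:**
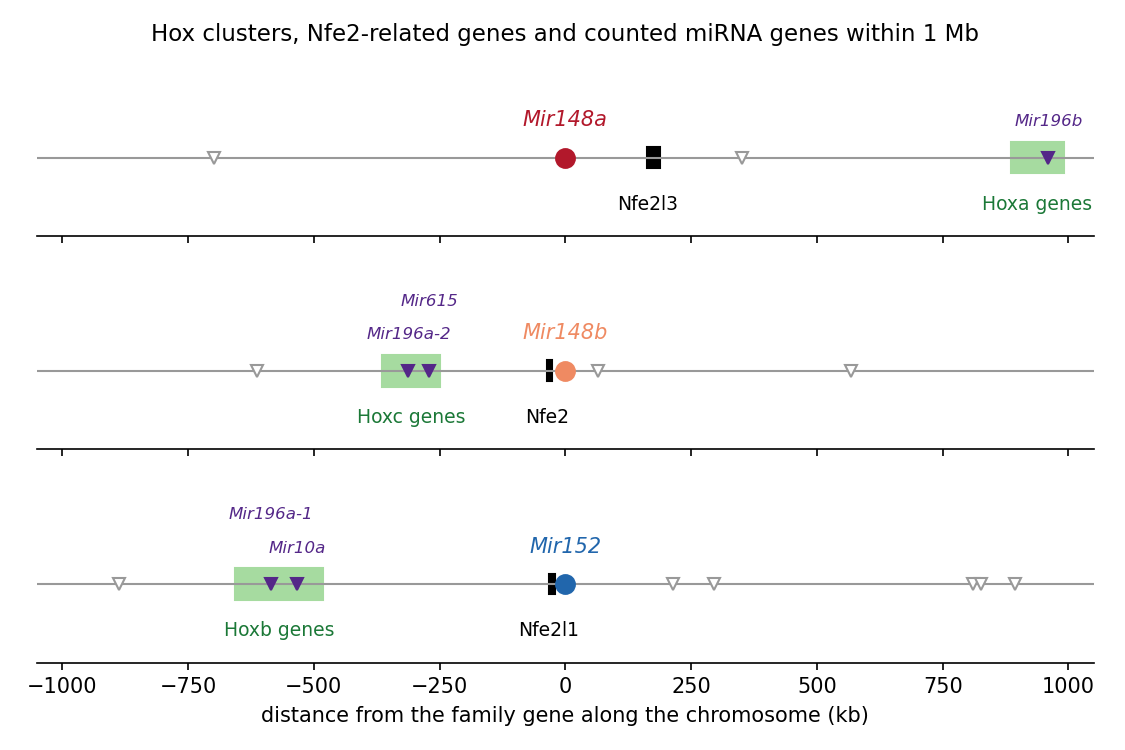
Distance along the chromosome in kb (x axis) from Mir148a, Mir148b and Mir152 (coloured circles at 0, 1 row each), with Hox clusters as green boxes, the neighbouring Nfe2-related gene in black, detected miRNA genes as filled triangles and counted but undetected ones as open triangles. Every row has a Hox cluster and an Nfe2-related gene, and all detected neighbours lie inside the Hox clusters.

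The family genes, though near Hox clusters, held far fewer reads in sum than the Hox miRNA genes. Levels within the Hox list ran from 40.1 CPM (Mir196a-1, below Mir152) to 178286 CPM (Mir10a). The family held 0.0419% ± 0.000764 of the gene reads, against 35.6% ± 1.07 for the 6 Hox cluster miRNA genes Mir10a, Mir10b, Mir196a-1, Mir196a-2, Mir196b and Mir615 (SD, n = 2), a ratio of Hox list over family of 849.5 ± 10.01. Most of this came from Mir10a (178286 ± 7283 CPM) and Mir10b (149286 ± 1538 CPM). The other 4 genes held 2.87% ± 0.186, or 68.5 ± 3.20 times the family's share. The Hox list had 6 of 6 members detected and a median of 13529 CPM, against 114.7 CPM for all detected genes. Mir148a, at 236.1 CPM, has 3 other counted miRNA genes within 1 Mb, of which only Mir196b was detected, at 11225 ± 420.1 CPM and 960.2 kb away. Mir148b, at 137.8 CPM, has 5, of which Mir615 (15833 ± 1929 CPM, 270.1 kb away) and Mir196a-2 (1633 ± 353.4 CPM, 311.7 kb away) were detected.

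Mir152, at 45.4 CPM, has 8 such neighbours. Mir10a, 533.1 kb away, was the most abundant gene of the libraries, with 178286 ± 7283 CPM, and Mir196a-1, 585.1 kb away, had 40.1 ± 1.65 CPM. Mir152 was above Mir196a-1 in 2 of 2 libraries, with 217 against 198 reads in replicate 1 and 202 against 172 in replicate 2, so that Mir196a-1 lay inside the counting interval of Mir152 in replicate 1 and, at 38.9 CPM, just below it in replicate 2. Mir196a-1 and Mir196a-2 share 20 bases of hairpin with each other, so their values lack any read placed at several loci. Of the 16 neighbours of the family in all, 5 were detected and 5 had no read in either library. The undetected ones within reach of Mir152 were Mir3063, Mir8103, Mir7235, Gm24158, Mir6927 and Mir8102, with at most 7 reads in a library. Those of Mir148b were Mir688, Mir6963 and Gm22852, and those of Mir148a were Mir6371 and Gm22914. All of these 5 genes had 0 reads in both libraries except Mir6963, with 1 read in replicate 2. Gm22852 and Gm22914 share 20-base stretches with 57 and 15 other miRNA genes, so reads of theirs may stand in no count. For a gene that shares none, a count of 0 allows up to 0.625 CPM in replicate 1 and 0.678 CPM in replicate 2 (3 counts, counting error only).

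The 7 seed letters of the family also occur 1 base nearer the 5′ end in another set of miRNAs. Of the 1738 mature sequences, 7 begin with them, and 6 of their genes were counted. The search reaches only genes with an entry in the table, which 338 of the 371 detected genes have. Mir301b, detected at 155.3 ± 13.0 CPM (SD, n = 2), has none and is not in this set. The sequences are shown with the same letters in capitals, here at bases 1 to 7, for the 3 genes of the set that were detected (chr2:84741116-84741137 minus strand, chr16:17124071-17124092 minus strand and chr11:87113054-87113076 plus strand).
miR-130a-3p: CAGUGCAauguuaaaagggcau
miR-130b-3p: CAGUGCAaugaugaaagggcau
miR-301a-3p: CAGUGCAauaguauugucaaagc

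This comparison was chosen after the sequences were searched. The family genes had summed levels of 424.8 CPM in replicate 1 and 414.0 CPM in replicate 2. The genes with the shifted letters held 2.56% ± 0.0840 of the gene reads, 61.0 ± 3.11 times the family's share (SD, n = 2). Mir130a had 18715 ± 471.0 CPM, Mir130b 5335 ± 304.4 and Mir301 1518 ± 64.6, each above Mir148a in both libraries. Mir301b, outside the set, was below Mir148a by its mean. Mir130c, Mir6341 and Mir6389 had 0 reads in both libraries. The seed of these miRNAs by position is bases 2 to 8 and so differs from that of the family.

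Other miRNA genes reported to target transcripts of DNA methyltransferases, mostly in human cells, were measured as a list of 8: Mir29a, Mir29b-1, Mir29b-2 and Mir29c, known for Dnmt3a and Dnmt3b, Mir143 for Dnmt3a, and Mir126a, Mir185 and Mir342 for Dnmt1. The family held 0.0419% of the gene reads, against 3.05% ± 0.192 for the list (SD, n = 2), of whose 8 genes 6 were detected with a median of 2787 CPM. Mir148a, at 236.1 ± 17.1 CPM, lay close to Mir185, at 233.5 ± 7.45 CPM, and the order of the pair differed between the libraries. Mir126a (19281 ± 1447 CPM), Mir342 (5570 ± 731.1) and Mir143 (5340 ± 232.8) were above every family gene. Mir29c, with 79.7 ± 7.86 CPM, lay between Mir148b and Mir152. Mir29a had 38.2 ± 13.7 CPM, with 28.5 CPM in replicate 1 and 47.9 in replicate 2, a range that includes both Mir152 values. Mir29b-1 and Mir29b-2 had 2 or 3 reads in each library. Mir29b-1, Mir29b-2 and Mir29c share 20-base stretches with other miRNA genes, so their values lack any read placed at several loci. DNA methyltransferase transcripts were not measured here.

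The labelled tissue was checked against marker genes. Of 8 neural markers 6 were detected, led by Mir137 at 2809 ± 379.0 CPM, and the list held 0.423% of the gene reads. The detected ones had a median of 282.2 CPM, and Mir124a-2 had 9.71 ± 1.58 CPM. Mir124a-1 and Mir124a-3, with 7 to 9 reads in each library, were not detected. The genes Mir9-3, Mir124a-1, Mir124a-2, Mir124a-3, Mir218-1 and Mir218-2 of this list share 20-base stretches with other miRNA genes and lack reads placed at several loci, so the list's share is not comparable with those of the other lists. Markers of other cell types were present too. The endothelial Mir126a held 1.93%, the mesenchyme and smooth muscle list 1.61% with 6 of 7 detected, led by Mir214 on the mean though not in replicate 2, and the epithelial list 0.222% with 7 of 7, led by Mir203. The blood list held 0.0276%, with 3 of 3 matched genes detected, led by Mir223, and the skeletal muscle list 0.0825% in replicate 1 and 0.0479% in replicate 2, led by Mir206. Mir199a-1, Mir199a-2, Mir199b (mesenchyme) and Mir133b (skeletal muscle) also share 20-base stretches with other miRNA genes and lack reads placed at several loci. The liver gene Mir122 held 0.00323% and 0.00140%, a log2 ratio of 1.16 with an exact binomial adjusted p of 8.6e-08. Of all detected genes, 53.1% passed this test. Of the 6 detected neural markers 4 passed, all lower in replicate 1, among them Mir137 with a log2 ratio of -0.32. Calls in other lists went both ways. In replicate 1, 3 epithelial markers were higher and 2 lower, and 1 mesenchymal marker was higher and 2 lower. With 53.1% of all detected genes past the test, these calls do not set the markers apart from other genes. The share of any of these cell types in the reads of Mir148a, Mir148b and Mir152 was not tested.

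At each family gene the libraries differed less than at most detected genes, though Mir148a and Mir148b differed in opposite directions. With TMM-scaled totals, which correct for differences in library composition, the log2 ratio of replicate 1 over replicate 2 was 0.11 for Mir148a, -0.17 for Mir148b and -0.05 for Mir152. The common coefficient of variation of the libraries, 16.3%, corresponds to an SD of 0.33 for such a ratio, and all 3 values were smaller than this. Of the detected genes, 75.5% lay farther from 0 than Mir148a, 62.3% farther than Mir148b and 87.6% farther than Mir152.

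In the two-sided exact binomial test with Benjamini-Hochberg adjustment over the 371 detected genes, 0 of the 3 family genes passed, while 53.1% of all detected genes did. With a 2-fold minimum it was again 0 of 3, beside 2.70% of detected genes. The adjusted p of this exact test was 0.137 for Mir148a, 0.0608 for Mir148b and 0.806 for Mir152. At an unadjusted p under 0.05, 1 of the 3 passed, Mir148b with an exact p of 0.0326, beside 56.3% of detected genes. With DESeq2 size factors 0 of 3 passed after adjustment, beside 52.8%. With plain library totals Mir148a passed, at an exact adjusted p of 0.0346 and a log2 ratio of 0.15, beside 52.0% of detected genes. It also passed with at least 100 reads in both libraries, beside 67.7% of the 269 genes then tested. Its adjusted p ran from 0.0260 to 0.471 over all settings tried. The test covers counting error alone and compares the pools, not conditions, so a p above the threshold is no evidence of equal pools.

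**Figure D4:**
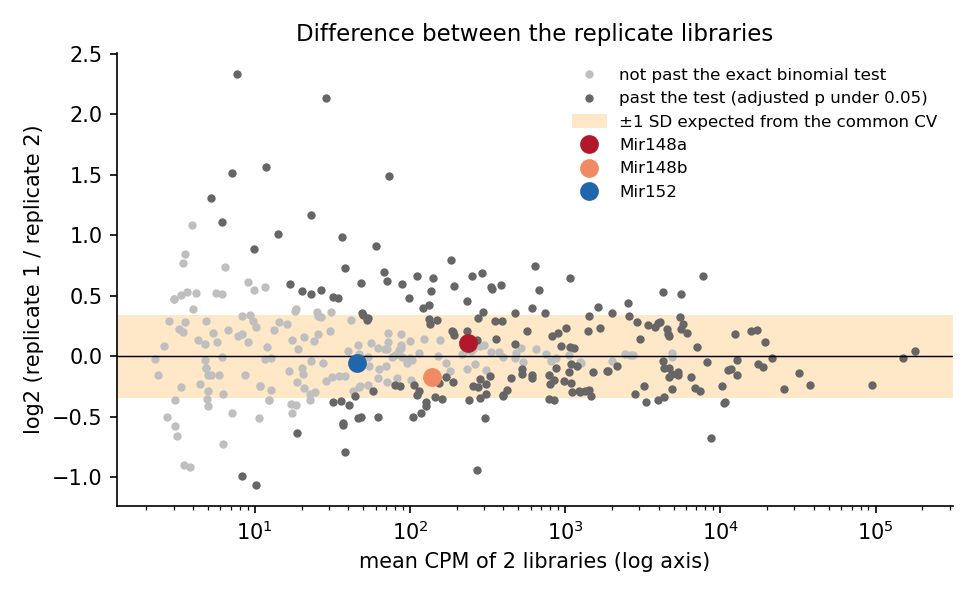
log2 ratio of replicate 1 over replicate 2 (y axis) against mean CPM (log x axis) for the 371 detected genes, dark where the adjusted p of the exact binomial test is under 0.05, with the family genes coloured and the band of ±0.33 expected from the common coefficient of variation shaded. Mir148a at 0.11, Mir148b at -0.17 and Mir152 at -0.05 all lie within the band.

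The genes whose values over the 2 libraries were nearest to each family gene were found by Euclidean distance in log2(CPM + 1). With 2 libraries this is a likeness of level and says nothing of a shared pattern. For Mir148a they were Mir199b (distance 0.0516, 239.5 and 224.3 CPM), Mir7-1 (0.0792) and Mir302a (0.113). For Mir148b they were Mir138-2 (distance 0.150, 130.4 and 160.1 CPM), Mir195a (0.223) and Mir877 (0.224). For Mir152 they were Mir224 (distance 0.0763, 47.7 and 45.9 CPM), Mir194-2 (0.109) and Mir30c-1 (0.113). Mir199b, Mir7-1, Mir302a, Mir138-2, Mir194-2 and Mir30c-1 share 20-base stretches with other miRNA genes, which the family genes do not, and lack any read placed at several loci.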

How the data were processed

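Unnormalized counts of reads per miRNA gene, for either strand and their sum, are what the authors deposited. Per the descriptions deposited with them, they were made on mm10 with annotation M4 from each library's own alignment. No aligner, counter or trimming is named in these sources. The count columns carry no names, and that with the higher total of the 2 strands (column 3) was taken to hold the reads on the gene's own strand, an inference from the values. It held 4802411 gene reads in replicate 1 and 4422853 in replicate 2. The 4 rows that name no gene stayed out of totals: of all reads in replicates 1 and 2, reads mapping to several places made up 27.0% and 28.6%, unmapped reads 27.3% and 20.0%, and reads on no feature 8.04% and 4.45%, with 0 ambiguous reads.

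Intervals are exact binomial (Clopper-Pearson, 95%); without molecular identifiers PCR copies cannot be told from molecules, so these intervals and floors cover counting error only. The libraries were compared by a two-sided exact binomial test given TMM-scaled totals (edgeR 4.0.16), with a threshold of 0.05. A check on simulated counts used plain library totals and counting error alone, so it does not cover the spread between these pools. The quasi-likelihood test needs 2 groups and was not used. The common coefficient of variation came from an intercept-only edgeR fit. The SD is the spread between the 2 pools.

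Gene names and positions are from GENCODE M21 (same assembly, later release), in which 1894 of 1973 identifiers matched, and sequences from RefSeq on GRCm38.p6, in which 338 of the 371 detected genes matched by symbol. Named genes are the 3 family genes, the 3 nearest to each in level, the Hox and DNA methyltransferase lists, all counted miRNA genes within 1 Mb, and the leading gene of each marker list. The genes with the shifted letters and the nearest protein-coding genes on either side were added after values or annotation were seen. Members and lists were chosen with earlier results of these data known. Alternatives were other denominators, DESeq2 1.42.0 size factors, library totals, other detection minimums, both strands and each library alone. Python 3.11.15, R 4.3.3, scipy 1.17.1 and RNAfold 2.7.2 were used.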

Additional observations from a re-analysis of the deposited data

How the results depend on the processing

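The order Mir148a, Mir148b, Mir152 held under every denominator, strand choice and single library tried. With multiply mapped reads added to the denominator, the levels were 141.8 CPM for Mir148a, 83.03 for Mir148b, 27.3 for Mir152 and 252.2 for the family. Without Mir10a and Mir10b in the denominator they were 351.4, 204.9, 67.6 and 623.8 CPM. These denominators change every gene of a library by 1 factor, so they could not alter the order within a library. The opposite strand added only 1 read, at Mir152 in replicate 2. With both strands together Mir152 had 44.8 CPM, more than its small SD from the value on its own strand.

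Between the libraries, 1 of 3 family genes, Mir148a, passed the exact binomial test with plain library totals (log2 ratio 0.15, adjusted p 0.0346, beside 52.0% of 371 genes) and with at least 100 reads in both libraries (log2 ratio 0.15, adjusted p 0.0260, beside 67.7% of 269 genes). Over all settings its adjusted p by this exact test ran from 0.0260 to 0.471, that of Mir148b from 0.0518 to 0.160 and that of Mir152 from 0.776 to 0.968. Calls among 371 genes were 97 higher and 100 lower in replicate 1, against 111 and 82 with library totals, 102 and 80 of 269 genes with at least 100 reads and 83 and 103 of 736 genes with at least 1 read.

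From 1 library alone, Mir148a ranged from 224.1 to 248.2 CPM, Mir148b from 131.4 to 144.3, Mir152 from 45.2 to 45.7 and Mir148a over Mir148b from 1.55 to 1.89. No paired analysis was possible because the samples form a single group.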
